A study of Mus musculus with 6 samples.

Results

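The apoptosis and cell death machinery of CD4 T cells from mouse liver is described here through 26 of the 750 genes counted in the series. They were taken by gene symbol: caspases, the BCL2 family, inhibitors of apoptosis, death receptor adaptors, RIP kinases, gasdermins, PARP genes and p53 with its target Cdkn1a. Of the 26 genes 14 promote death, 8 restrain it and 4 have neither role as their main one. The FFC group held 3 libraries, described as MASH, and the Chow group held 3 described as control; the series calls the 3 of each group biological replicates. FFC is in this field a usual name of a diet rich in fat, fructose and cholesterol, and MASH of the steatohepatitis that goes with metabolic dysfunction, but the labels spell out neither. The sources used here do not give the strain, age or sex of the mice, the length of feeding, the way the CD4 T cells were isolated or what else the groups share.

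Apoptosis is run by caspases, proteases that lie inactive in the cell until they are brought together or cut. In the mitochondrial pathway BAX and BAK open the outer membrane of the mitochondrion unless BCL2, BCL-XL or MCL1 hold them, and released proteins such as DIABLO then free the caspases from their inhibitors. In the death receptor pathway FADD recruits the initiator encoded by Casp8, which the Cflar product blocks. When that initiator is inactive, RIPK1 and RIPK3 can drive necroptosis, and the inflammatory caspases cut gasdermin D and cause pyroptosis. In T cells these pathways delete activated clones after a response, and the BCL2 family sets how long naive and memory cells live.

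The nCounter assay reads a barcode on each probe that has bound its RNA, with no amplification step. Each deposited value is the log2 of a count multiplied by a factor of its library, and the counts recovered from it totalled 623212 to 693640 in the FFC libraries and 726836 to 900322 in the Chow libraries. The scale factors were 1.11 to 1.26 in FFC and 0.707 to 1.10 in Chow, so that equal counts would be deposited as higher values in each FFC library. The genes that define CD4 T cells were present: Cd4, Cd3d, Cd3e and Cd3g together had 9635 to 10695 counts in FFC and 7039 to 11718 in Chow. Their deposited values, summed on the linear scale, were 10730 to 13520 in FFC and 7351 to 9064 in Chow. FFC 3 and Chow 3 lay nearest each other across the groups on the first principal component, at -2.35 and 1.36, which held 67.2% of the variance. Values with both of these libraries left out are given beside each of the 26 genes that passes then.

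None of the 26 genes passed the test of FFC against Chow on the deposited values. In limma's moderated test on the deposited values, 0 of 26 had a Benjamini-Hochberg adjusted p under 0.05, where 18.3% of the 748 tested genes were called, 17.4% as higher and 0.936% as lower. At an unadjusted p under 0.05 there were 2 of 26, Casp1 and Trp53inp2, against 37.0% of all tested genes. The same test on recovered counts with voom weights called 1, Casp1, where 28.9% of all tested genes were called. The differences ran from -0.39 (Bax) to 1.13 (Casp1) on the log2 scale, with a median of 0.28, while the median over the 748 tested genes was 0.43. That median depended on the count level. At mean counts of 100 to 200 the median of 3 of the 26 genes was 0.43, against 0.80 over tested genes. At 200 to 1000 it was 0.11 (14 of the 26) against 0.34, and above 1000 it was higher, 0.25 (9 of the 26) against 0.08. All 26 genes passed the filter on low values.

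**Figure D1:**
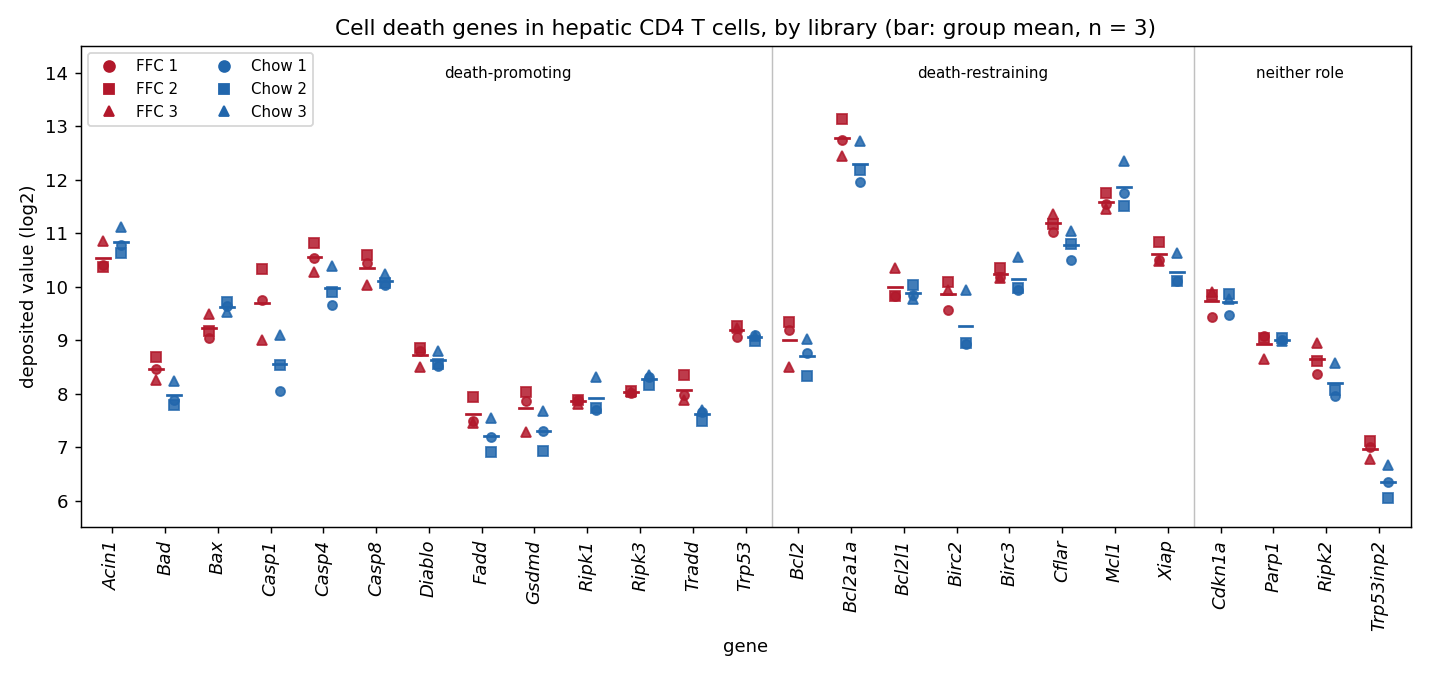
Deposited log2 values (vertical axis) of 25 cell death genes (horizontal axis, by role) in each library; red is FFC, blue is Chow, symbols mark replicates 1 to 3 and bars the group means. Casp1 has the widest gap between the bars, and its lowest FFC point (9.001) lies just under its highest Chow point (9.09).

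The 2 groups did not overlap for 5 of the 26 genes, where 38.6% of all tested genes did not. Bad, Tradd and Trp53inp2 were higher in each FFC library than in each Chow library, and Bax and Ripk3 were lower in each. The sign of 13 of the 26 differences turned under at least 1 of 3 other scalings (centring, quantile normalization, cyclic loess), 8 of them under centring. When each library was centred on its own median value, the median over all tested genes was 0.04 in place of 0.43. Then 11 of the 26 genes lay above 0 in place of 19, and 397 of the 748 tested genes in place of 602. Centring moved the difference of every tested gene by the same -0.386, members or not. After centring Mcl1 alone of the 26 passed, as lower in FFC (adjusted p = 0.031, limma), where 19.3% of the tested genes passed, 4.81% as lower and 14.4% as higher. On centred values the groups did not overlap for 4 of the 26 genes that were higher in FFC (28.2% of all tested genes) and 7 that were lower (16.0%). On recovered counts, before any scaling, 7 were lower without overlap (22.1% of all tested genes) and 0 higher (20.3% of all tested genes). From here on the centred difference is also given for each gene whose deposited difference is given.

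**Figure D2:**
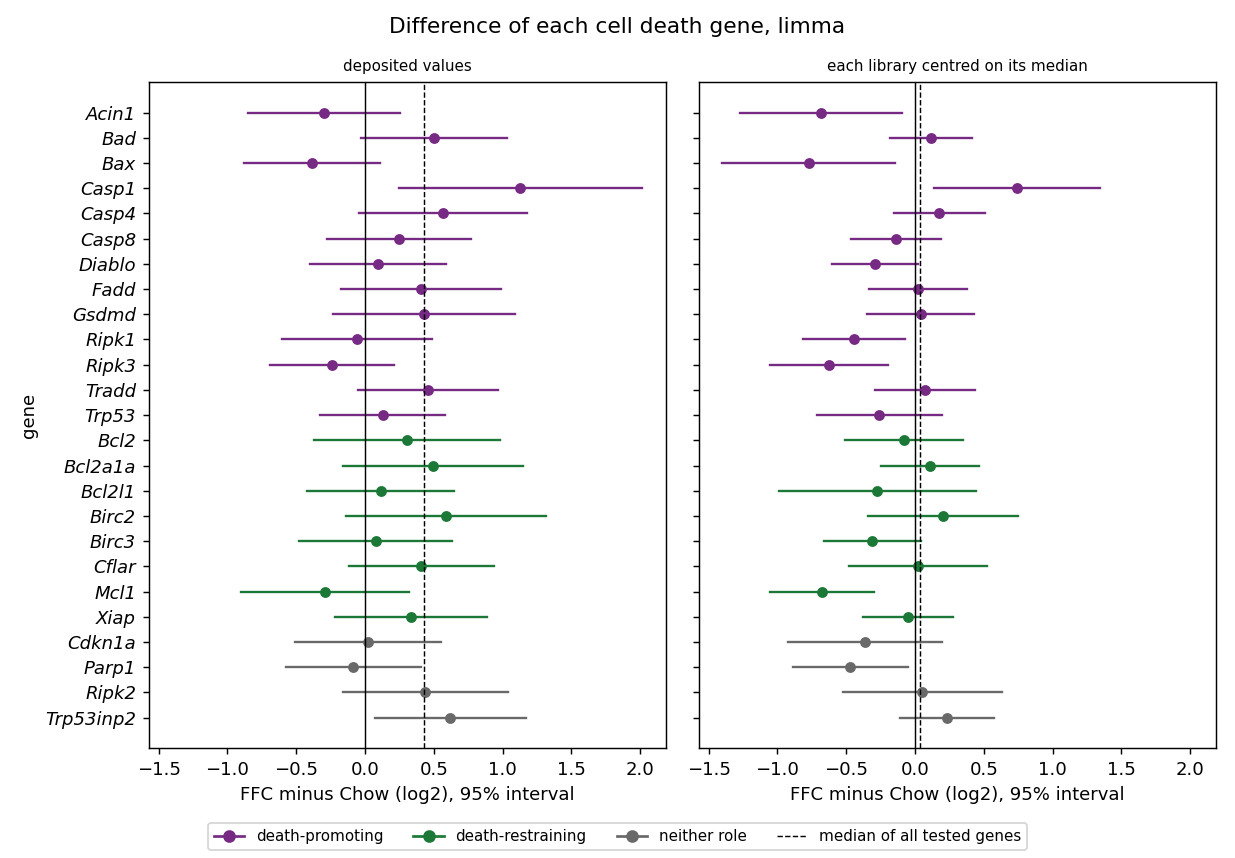
Difference of FFC minus Chow (log2, horizontal axis) with its 95% interval from limma for each of 25 genes, on deposited values (left) and with each library centred on its median (right); colours mark roles and the dashed line the median of all tested genes. On the left 2 intervals lie wholly above 0, those of Casp1 and Trp53inp2; on the right that of Casp1 lies above 0 and those of Mcl1, Bax, Acin1, Ripk3, Parp1 and Ripk1 lie below it.

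Casp1 and Casp4 encode inflammatory caspases. The Casp1 product is activated in inflammasomes and matures interleukin 1 beta, and that of Casp4 binds bacterial lipopolysaccharide in the cytosol. The genes are neighbours on mouse chromosome 9. Their promoters are shown because Casp1 had the highest difference of the 26 genes and Casp4 was, with it, among the 4 that lay apart as higher in FFC after centring; the promoter of Mcl1, the only member that passed after centring, stands beside them. Each is the 250 bases before the start of the gene in RefSeq on GRCm38.p6, at chr9:5298267-5298516, chr9:5308599-5308848 and chr3:95658471-95658720, all on the plus strand. Capitals mark matches to the NF-kappaB consensus on either strand.
Casp1: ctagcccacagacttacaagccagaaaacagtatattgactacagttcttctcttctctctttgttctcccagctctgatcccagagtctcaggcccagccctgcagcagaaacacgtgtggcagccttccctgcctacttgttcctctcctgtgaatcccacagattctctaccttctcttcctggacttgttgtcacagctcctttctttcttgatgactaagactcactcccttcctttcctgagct
Casp4: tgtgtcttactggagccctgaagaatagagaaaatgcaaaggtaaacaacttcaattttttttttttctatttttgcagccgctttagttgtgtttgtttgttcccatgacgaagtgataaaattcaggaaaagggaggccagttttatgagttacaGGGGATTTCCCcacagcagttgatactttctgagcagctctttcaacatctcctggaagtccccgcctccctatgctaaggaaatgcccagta
Mcl1: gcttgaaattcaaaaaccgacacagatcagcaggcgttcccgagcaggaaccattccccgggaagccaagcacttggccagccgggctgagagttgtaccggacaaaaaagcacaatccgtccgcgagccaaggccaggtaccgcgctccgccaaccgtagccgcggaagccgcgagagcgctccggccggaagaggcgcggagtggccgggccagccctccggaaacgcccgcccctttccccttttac
Casp4 had 2 promoters listed, of which 1 is shown, and Casp1 and Mcl1 had 1 each. The Casp4 window shown held 2 matches to the NF-kappaB consensus that overlap each other, GGGGATTTCC and GGGATTTCCC, and the other 2 windows held none. Of the 22 genes with a promoter in the table, Casp4 and Bcl2l1 had such a match, which 3.90% of all 32851 promoters held. The interferon gamma motif TTCNNNGAA was found for Ripk1 alone, in 7.02% of all promoters, and the type I interferon core GAAANNGAAA for none of the 22, in 2.98% of all promoters. These are matches of letters, not measured sites.

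Casp1 stood at 9.75, 10.32 and 9.001 in the FFC libraries and at 8.05, 8.54 and 9.09 in the Chow libraries (deposited log2 values). FFC 1 and FFC 2 lay above every Chow library, and FFC 3 lay between Chow 2 and Chow 3. The difference was 1.13 ± 0.39 (SE; limma adjusted p = 0.071), a 2.19-fold higher mean in FFC, and 0.74 after centring (adjusted p = 0.077). Casp1 passed without FFC 3 (1.47, adjusted p = 0.022) and without Chow 3 (1.39, adjusted p = 0.037), and the difference was 1.74 with both left out (adjusted p = 3.1e-04). With both left out, as chosen after seeing the data, 63.5% of all tested genes passed.

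Casp4 stood at 10.54, 10.82 and 10.27 in FFC and at 9.66, 9.90 and 10.39 in Chow. As for Casp1, the third FFC library lay below the third Chow library and the others lay apart. The difference was 0.56 ± 0.27 (SE; limma adjusted p = 0.16) and 0.18 after centring, where the lowest FFC library (10.32) lay just above the highest Chow library (10.29). It passed without Chow 3 (0.77, adjusted p = 0.041), where 38.8% of all tested genes passed, and with FFC 3 and Chow 3 both left out (0.91, adjusted p = 0.0029). Gsdmd, the gene of the pore-forming protein that both caspases cut, averaged 7.73 ± 0.39 in FFC and 7.30 ± 0.37 in Chow (SD, n = 3 each), a difference of 0.43 (adjusted p = 0.32) that was 0.04 after centring, -0.28 under quantile normalization and 0.84 with both FFC 3 and Chow 3 left out (adjusted p = 0.0048).

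Other genes of the inflammasome lay in the same direction as Casp1. Of 7 tested sensors, adaptors and products 2 rose in FFC, Nlrp3 by 1.07 (limma adjusted p = 0.045) and Mefv, the gene of pyrin, by 1.06 (adjusted p = 0.043), and none fell. Of all tested genes 17.4% rose. All 7 lay above 0, as did 602 of the 748 tested genes. Their median was 1.06 against 0.43 over all tested genes, and 0.67 against 0.04 after centring. The median over tested genes was higher at low counts, 0.80 at mean counts of 100 to 200 and 0.34 at 200 to 1000. Nlrp3 stood at 8.11, 8.24 and 7.77 in FFC and at 6.69, 6.64 and 7.60 in Chow, so that the groups did not overlap and Chow 3 lay nearest FFC. After centring both genes passed, Nlrp3 at 0.68 (limma adjusted p = 0.0385) and Mefv at 0.67 (adjusted p = 0.023). Under quantile normalization neither passed, with 0.40 for Nlrp3 (adjusted p = 0.14) and 0.53 for Mefv (adjusted p = 0.058). With trend and robust eBayes Nlrp3 did not pass (adjusted p = 0.051). Neither passed after cyclic loess (0.39 and 0.56), or without FFC 1 (1.03 and 1.02), FFC 2 (0.97 and 0.92), Chow 1 (0.92 and 0.94) or Chow 2 (0.90 and 0.94), each pair with Nlrp3 first.

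Macrophages also use the inflammasome, and markers of macrophages lay in the same direction as Casp1. Of 7 tested macrophage, Kupffer cell and monocyte markers 4 rose and none fell, on deposited and on centred values. Of all tested genes 17.4% rose on deposited values and 14.4% on centred ones. The deposited values of the 7 markers, summed on the linear scale, were 2307 to 5317 in FFC and 1026 to 2128 in Chow. Their summed recovered counts were 2071 to 4205 in FFC and 1371 to 1931 in Chow. None was at 0 in any library, but no gene could be, since a count of 0 has no log2 value. C1qa, a complement gene of resident macrophages, stood at 9.36, 9.66 and 8.33 in FFC and at 6.34, 6.58 and 7.66 in Chow. FFC 3 was lowest of its group and Chow 3 highest, as for Casp1. The library medians over all genes had this order too, 8.76, 8.96 and 8.47 in FFC and 8.19, 8.21 and 8.63 in Chow. The C1qa difference of 2.26 (limma adjusted p = 0.027) was 1.87 after centring (adjusted p = 0.014). C1qa did not pass without FFC 1 (2.13), FFC 2 (1.98), Chow 1 (2.00) or Chow 2 (2.11), where 1, 1, 7 and 2 of all tested genes passed. In bulk RNA more cells of a type and more RNA per cell cannot be told apart. The part of other cells in the Casp1, Casp4, Nlrp3 and Mefv values was not tested. Neutrophil markers included calls too (4 of 7 rose, summed deposited values 1007 to 1639 in FFC and 528.4 to 1081 in Chow). So did NK cell markers (2 of 4 rose, 676.1 to 1474 in FFC and 311.2 to 495.8 in Chow). After centring the same numbers rose, 4 of 7 and 2 of 4. Dendritic cell markers (1 of 2, and 1 after centring) and the CD4 T cell genes themselves (2 of 4, and 0 after centring) included calls as well. Summed recovered counts of the neutrophil markers were 904 to 1296 in FFC and 683 to 981 in Chow. For the NK cell markers they were 607 to 1166 in FFC and 440 to 557 in Chow. Of the 6 B cell markers none rose or fell on the deposited scale and 2 fell after centring, and of the 2 CD8 genes neither passed.

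**Figure D3:**
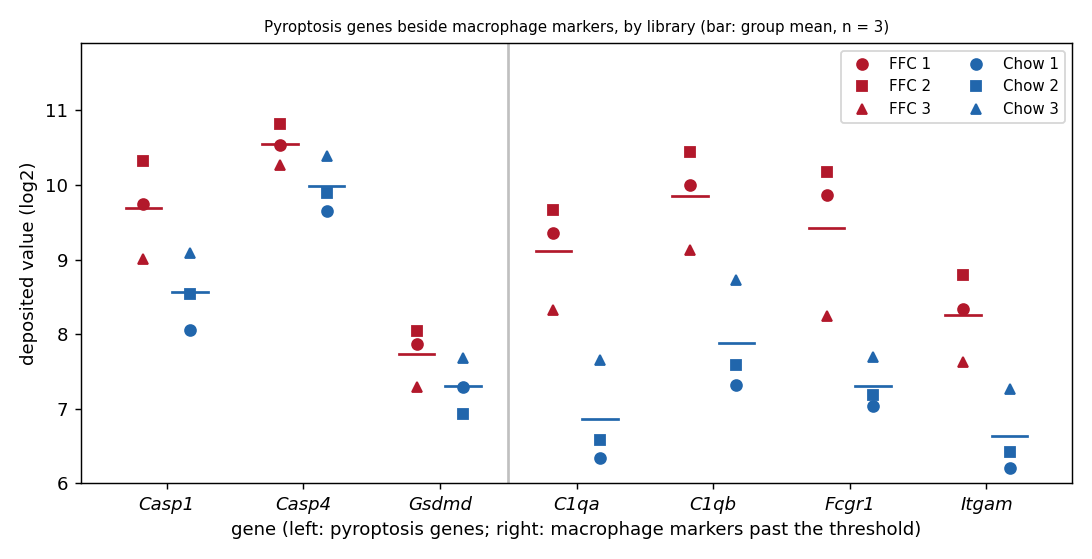
Deposited log2 values (vertical axis) of Casp1, Casp4 and Gsdmd and of the 4 macrophage markers past the threshold in each library; red is FFC, blue is Chow, symbols mark replicates 1 to 3 and bars the group means. For each of the 7 genes FFC 3 is the lowest FFC library and Chow 3 the highest Chow library. The library medians over all genes have the same order, with FFC 3 at 8.47 and Chow 3 at 8.63.

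Casp8, the initiator of the death receptor pathway, stood at 10.44, 10.59 and 10.03 in FFC and at 10.02, 10.07 and 10.24 in Chow, with the third FFC library inside the Chow range. Its difference was 0.25 (interval -0.28 to 0.77, limma adjusted p = 0.47) and -0.14 after centring, and with FFC 3 and Chow 3 both left out it was 0.47 and passed (adjusted p = 0.044).

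Of the BCL2 family members that promote death, Bax and Bad were counted. Bax, the gene of a pore-forming effector, stood at 9.04, 9.17 and 9.48 in FFC and at 9.63, 9.71 and 9.52 in Chow. Each FFC library lay below each Chow library, FFC 3 by the smallest margin. The difference was -0.39 ± 0.22 (SE; interval -0.88 to 0.11, limma adjusted p = 0.23) and -0.77 after centring (adjusted p = 0.077). With FFC 3 and Chow 3 both left out it was -0.56 and passed (adjusted p = 0.022), where 2.01% of all tested genes passed as lower. Bad, the gene of a BH3-only sensor that binds BCL2 and BCL-XL, stood at 8.46, 8.69 and 8.25 in FFC and at 7.88, 7.78 and 8.24 in Chow. The third libraries of the groups almost met. Its difference was 0.50 ± 0.23 (SE; adjusted p = 0.15) and 0.12 after centring, and 0.75 with FFC 3 and Chow 3 both left out (adjusted p = 0.0063).

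Among the guardians of the BCL2 family Mcl1, a short-lived protein on which T cells depend for survival, had the lowest difference. Mcl1 had 2540, 2715 and 2506 recovered counts in FFC and 4479, 4088 and 4736 in Chow, apart in every library before scaling. On the deposited scale it stood at 11.55, 11.74 and 11.45 in FFC and at 11.76, 11.50 and 12.35 in Chow, where the groups overlapped and the difference was -0.29 ± 0.27 (SE; limma adjusted p = 0.47). It was -0.05 without Chow 3, and 0.02 with FFC 3 and Chow 3 both left out. After centring it stood at 11.33, 11.32 and 11.51 in FFC and at 12.10, 11.83 and 12.25 in Chow, apart again, and fell by 0.67 (interval -1.05 to -0.30, adjusted p = 0.031). The other scalings gave no call, with -0.46 after quantile normalization (adjusted p = 0.12), -0.41 after cyclic loess (adjusted p = 0.19) and -0.50 with voom (adjusted p = 0.10). With centring and 1 library left out in turn, Mcl1 lay between -0.79 and -0.58 and passed only without FFC 3 (adjusted p = 0.022). It did not pass without FFC 1, FFC 2, Chow 1, Chow 2 or Chow 3 (adjusted p from 0.051 to 0.12). In these settings, in this order, 6, 8, 10, 6 and 49 of all tested genes passed as lower.

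Bcl2, the founding inhibitor of the family, stood at 9.19, 9.33 and 8.50 in FFC and at 8.76, 8.33 and 9.02 in Chow. FFC 3 lay below 2 of the 3 Chow libraries. The difference was 0.31 ± 0.30 (SE; limma adjusted p = 0.48) and -0.08 after centring, and with FFC 3 and Chow 3 both left out it was 0.72 (adjusted p = 0.013). Bcl2l1, which encodes BCL-XL, stood at 9.83, 9.82 and 10.35 in FFC and at 9.85, 10.04 and 9.77 in Chow (difference 0.11, adjusted p = 0.77, -0.27 after centring). Here FFC 3 was the highest of the 6 libraries. Bcl2a1a, of a family of near-identical copies induced by antigen receptor signals, averaged 12.78 ± 0.35 in FFC and 12.28 ± 0.40 in Chow (SD, n = 3 each; difference 0.49, adjusted p = 0.24, 0.11 after centring, and 0.88 with an adjusted p of 0.0042 when both FFC 3 and Chow 3 were left out). Its probe may bind transcripts of the other copies, which the table does not list apart.

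A ratio of 2 genes within a library does not depend on that library's scale factor. Pairs of a gene with that of its binding partner or inhibitor were picked after the values had been seen, 6 in all, and are given without a test. The log2 ratio of Bax over Bcl2l1 was -0.79, -0.64 and -0.87 in FFC and -0.22, -0.33 and -0.25 in Chow. It was the only pair of the 6 whose groups did not overlap, at -0.77 ± 0.12 in FFC and -0.27 ± 0.06 in Chow (SD, n = 3 each), a difference of -0.50. Bax over other genes behaved alike often, since its ratio was lower without overlap over 47.3% of the other 747 tested genes. The ratio of Bax over Bcl2 was -0.14, -0.16 and 0.98 in FFC and 0.87, 1.38 and 0.51 in Chow, so that FFC 3 lay among the Chow libraries. The ratio of Casp8 over Cflar averaged -0.83 ± 0.44 in FFC and -0.67 ± 0.17 in Chow, and that of Diablo over Xiap -1.89 ± 0.16 in FFC and -1.65 ± 0.15 in Chow, with overlap in both.

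**Figure D4:**
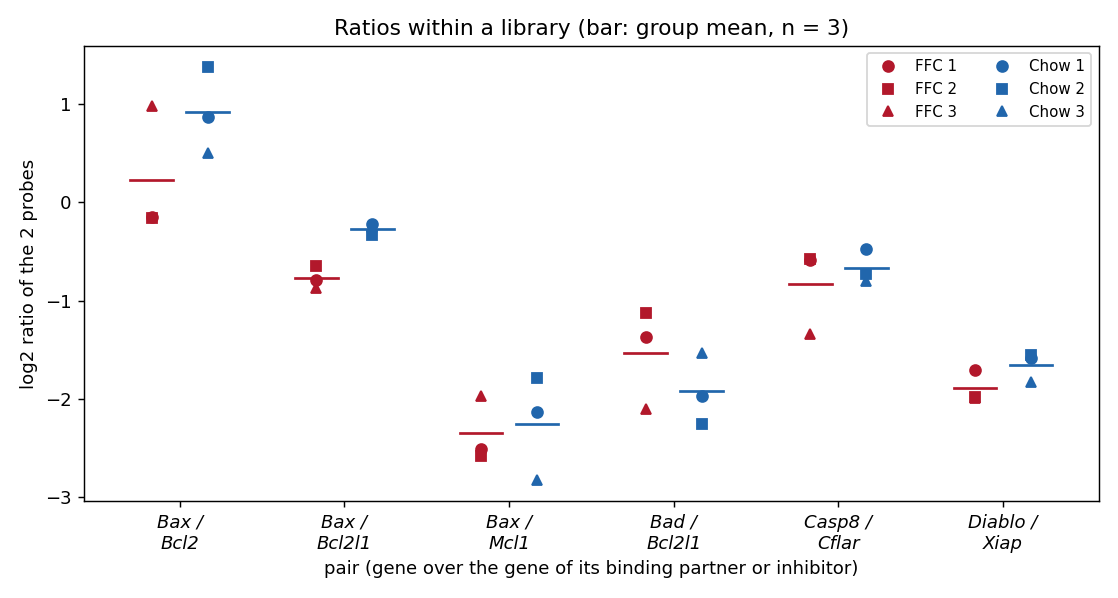
Log2 ratio of the 2 probes named under each column, computed within each library, which cancels the scale factor; red is FFC, blue is Chow, symbols mark replicates 1 to 3 and bars the group means. The Bax over Bcl2l1 points of the 3 FFC libraries (-0.87 to -0.64) all lie under those of the 3 Chow libraries (-0.33 to -0.22), while the groups overlap in the other 5 columns.

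The inhibitors of apoptosis showed no call on the deposited scale. Xiap, which blocks caspases directly, averaged 10.61 ± 0.20 in FFC and 10.27 ± 0.31 in Chow (SD, n = 3 each; difference 0.34, limma adjusted p = 0.35, -0.05 after centring, and 0.57 with an adjusted p of 0.026 without both FFC 3 and Chow 3). Birc2 and Birc3 are neighbouring genes of ubiquitin ligases that keep RIPK1 in a survival complex. Birc2 stood at 9.56, 10.08 and 9.94 in FFC and at 8.93, 8.95 and 9.93 in Chow, where Chow 3 lay a full log2 unit off the other Chow libraries and inside the FFC range. Its difference of 0.59 (adjusted p = 0.21, 0.20 after centring) was 0.92 without Chow 3 and passed there (adjusted p = 0.023), as it did without FFC 3 and Chow 3 (0.88, adjusted p = 0.0054). Birc3 averaged 10.23 ± 0.10 in FFC and 10.15 ± 0.35 in Chow (difference 0.08, adjusted p = 0.85, -0.31 after centring). Diablo, the mitochondrial antagonist of these inhibitors, averaged 8.72 ± 0.19 in FFC and 8.62 ± 0.15 in Chow (difference 0.10, adjusted p = 0.78, -0.29 after centring). Cflar averaged 11.18 ± 0.17 in FFC and 10.78 ± 0.27 in Chow (difference 0.41, adjusted p = 0.23, 0.02 after centring).

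No adaptor of death receptors and no RIP kinase passed on the deposited scale. Tradd, the adaptor of the TNF receptor, was higher in each FFC library (7.98, 8.36 and 7.88) than in each Chow library (7.65, 7.49 and 7.70), with a difference of 0.46 (limma adjusted p = 0.17) that was 0.07 after centring, -0.16 under quantile normalization and 0.60 without both FFC 3 and Chow 3 (adjusted p = 0.026). Fadd averaged 7.62 ± 0.27 in FFC and 7.21 ± 0.32 in Chow (SD, n = 3 each; difference 0.41, adjusted p = 0.28, 0.02 after centring, -0.28 under quantile normalization, and 0.67 with an adjusted p of 0.021 without both FFC 3 and Chow 3). Ripk3, the necroptosis kinase, stood at 8.004, 8.05 and 8.04 in FFC and at 8.30, 8.16 and 8.35 in Chow, each FFC library below each Chow library. Its difference was -0.24 ± 0.20 (SE; adjusted p = 0.41), -0.62 after centring (adjusted p = 0.051) and -0.72 under cyclic loess (adjusted p = 0.0499). Ripk1, its partner, stood at 7.88, 7.88 and 7.81 in FFC and at 7.69, 7.74 and 8.31 in Chow, with Chow 3 apart from the other Chow libraries. Its difference was -0.06 (adjusted p = 0.89), -0.44 after centring (adjusted p = 0.083) and -0.62 under cyclic loess (adjusted p = 0.0499). Under cyclic loess 3.61% of all tested genes passed as lower. Ripk2, which signals from the NOD receptors of bacterial cell wall fragments, averaged 8.64 ± 0.30 in FFC and 8.20 ± 0.33 in Chow (difference 0.44, adjusted p = 0.25, 0.05 after centring).

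The genes of p53 and of the nucleus gave no call on the deposited scale. Trp53, which encodes p53, averaged 9.18 ± 0.11 in FFC and 9.05 ± 0.06 in Chow (SD, n = 3 each; difference 0.13, interval -0.33 to 0.58, limma adjusted p = 0.68, -0.26 after centring). Cdkn1a, the cell cycle inhibitor that p53 induces, averaged 9.73 ± 0.25 in FFC and 9.70 ± 0.20 in Chow (difference 0.02, interval -0.51 to 0.55, adjusted p = 0.96, -0.36 after centring). Parp1, a DNA damage sensor cut by caspases in apoptosis, averaged 8.92 ± 0.24 in FFC and 9.004 ± 0.03 in Chow (difference -0.08, adjusted p = 0.81, -0.47 after centring with an adjusted p of 0.094 and the groups apart). Acin1, linked to chromatin condensation in apoptosis and to splicing, averaged 10.54 ± 0.27 in FFC and 10.84 ± 0.25 in Chow (difference -0.30, adjusted p = 0.40, -0.68 after centring with an adjusted p of 0.088). Trp53inp2 is matched by its symbol but is known chiefly for autophagy. It stood at 7.00, 7.12 and 6.78 in FFC and at 6.34, 6.04 and 6.66 in Chow, apart in every library, with a difference of 0.62 ± 0.24 (SE; adjusted p = 0.096) that was 0.23 after centring and -0.22 under quantile normalization. It passed without Chow 3 (0.78, adjusted p = 0.030) and without both FFC 3 and Chow 3 (0.87, adjusted p = 0.0032). Its counts were low, 99 to 110 in FFC and 92 to 105 in Chow, in a range of 100 to 200 mean counts where the median difference of the 144 tested genes was 0.80.

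**Figure D5:**
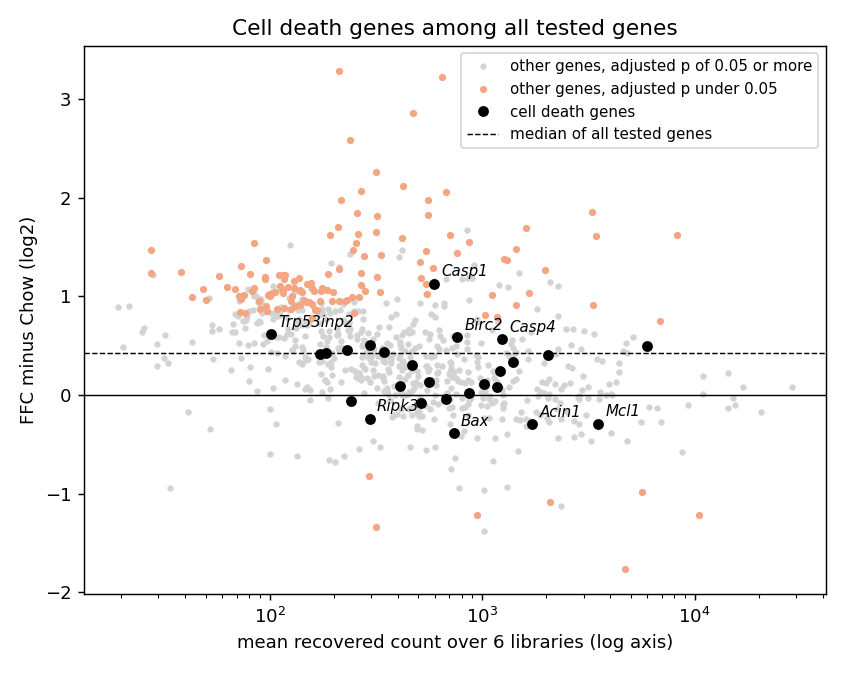
Difference of FFC minus Chow (log2, vertical axis) against the mean recovered count over the 6 libraries (log axis) for every tested gene; black points are the 26 cell death genes, orange points other genes with an adjusted p under 0.05, and the dashed line the median of all tested genes (0.43). The black points run from -0.39 to 1.13, mostly under the dashed line.

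The genes that promote death and those that restrain it are given by their medians, with no test between them. The 14 death-promoting genes had a median difference of 0.19 (range -0.39 to 1.13) and 9 of them lay above 0. The 8 death-restraining genes had a median of 0.32 (range -0.29 to 0.59) with 7 above 0. Of the 748 tested genes 602 lay above 0. After centring the medians were -0.20 and -0.06, under quantile normalization -0.27 and 0.01, and after cyclic loess -0.24 and 0.097, the death-promoting genes first in each pair. In both lists, 0 genes passed on the deposited values. Against the median of all tested genes, 5 of the 14 and 2 of the 8 lay above it.

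Leaving out single libraries moved the count of called members. Without Chow 3 the calls were Birc2, Casp1, Casp4 and Trp53inp2, all higher in FFC, 4 of 26 against 38.8% of all tested genes. Without FFC 3 Casp1 alone passed, against 31.3% of all tested genes. With both left out 13 of 26 passed, against 63.5%: Bad, Bcl2, Bcl2a1a, Birc2, Casp1, Casp4, Casp8, Fadd, Gsdmd, Tradd, Trp53inp2 and Xiap as higher and Bax as lower. With centring and without FFC 3, 7 of 26 passed, against 33.0%, among them Casp1 as higher and Acin1, Bax, Mcl1, Ripk1 and Ripk3 as lower. With centring and without Chow 3, Parp1 and Ripk3 passed as lower, against 22.1% of all tested genes in either direction.

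The ligands, receptors and granule proteins that act upstream of this machinery were counted in the same libraries. Of all tested genes 17.4% rose. Of 8 death receptor and ligand genes 1 rose and none fell. It was Fasl, the ligand by which T cells kill Fas-bearing cells, at 8.86, 9.27 and 8.90 in FFC and 7.68, 7.22 and 7.89 in Chow, apart in every library, with a difference of 1.42 ± 0.25 (SE; limma adjusted p = 0.023; 1.03 after centring, adjusted p = 0.016). It did not pass without FFC 1 (1.49), FFC 2 (1.29), Chow 1 (1.46) or Chow 2 (1.23), where 1, 1, 7 and 2 of all tested genes passed. The median of the 8 was 0.37. Its receptor gene Fas differed by 0.07 (adjusted p = 0.88, -0.32 after centring). Of 4 granule genes 3 rose, Gzma (3.22), the perforin gene Prf1 (1.66) and Gzmm (1.10), with a median of 1.38 over the 4. These 3 passed after centring too, Gzma at 2.83 (limma adjusted p = 0.0215), Prf1 at 1.27 (adjusted p = 0.046) and Gzmm at 0.715 (adjusted p = 0.017). Under quantile normalization Prf1 (1.14, adjusted p = 0.14) and Gzmm (0.33, adjusted p = 0.17) did not pass, nor after cyclic loess (1.16, adjusted p = 0.11, and 0.30, adjusted p = 0.21). Gzma passed without each of the Chow libraries and without FFC 3, but not without FFC 1 (2.74) or FFC 2 (3.52), and Prf1 and Gzmm passed only without FFC 3 (2.11 and 1.25) or Chow 3 (1.59 and 1.24). NK cells carry these granule genes and Fasl too, and the part of the NK cell markers above in these values was not tested.

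Of 11 genes of survival cytokines, their receptors and their signal Il7, the cytokine that maintains naive and memory T cells, rose by 0.83 (limma adjusted p = 0.048) and none fell, with a median of 0.22. Of all tested genes 17.4% rose. Il7 had 80 to 89 counts in FFC and 66 to 70 in Chow, and its difference was 0.44 after centring (adjusted p = 0.059) and 0.07 under quantile normalization. It did not pass after cyclic loess (0.02), with a pseudocount of 10 (0.73, adjusted p = 0.056) or with trend and robust eBayes (adjusted p = 0.054). With 1 library left out it passed only without FFC 3 (0.92) or Chow 3 (1.0). Without FFC 1, FFC 2, Chow 1 and Chow 2 in turn, 1, 1, 7 and 2 of all tested genes passed. The receptor gene Il7r differed by 0.97 (adjusted p = 0.17), and passed without Chow 3 (adjusted p = 0.019). Of 11 genes of the NF-kappaB survival arm none passed in limma, where 18.3% of all tested genes did, and their median was 0.24. At an unadjusted p under 0.05 there was 1, against 37.0% of all tested genes. After centring 2 of the 11 lay above 0, and 397 of the 748 tested genes did.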

How the data were processed

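Per the series title the nCounter assay was used, and per the labels' protocols total RNA came from a Direct-zol MicroPrep column kit. The authors deposited a table of 750 genes by 6 libraries, in log2; the sources used here do not say how it was normalized or whether background was taken off. In each library 100% of the values were log2 of a whole number, to within 0.02, times 1 factor, which gave the recovered counts. Groups were taken from the sample titles. The 748 genes with a linear mean of at least 20 entered limma 3.58.1 in R 4.3.3 unchanged (lmFit, eBayes, both groups, no covariate, two-sided), and p-values were adjusted over all of them by Benjamini-Hochberg with a threshold of 0.05. Tests were checked on simulated data. Those data held no shift shared by the genes of a library, so the check does not bear on the scaling.

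The 26 genes and all gene lists were chosen with earlier results of these data known. Of the 26, 25 are named and 1 enters the counts but is not reported here by itself. Values per library are given for the genes with the 4 smallest p in each direction after centring, for Bcl2, Mcl1, Casp8 and Bax, and for Birc2, Bcl2l1 and Tradd, which were added after their values were seen; genes outside the 26 are named where they passed, and C1qa, Fas and Il7r were added after their values were seen. All 26 were current RefSeq symbols. Alternatives were centring, quantile normalization, cyclic loess, pseudocounts of 10 and 1, no filter, a mean of at least 50, blocking on the replicate number, leaving out 1 library at a time, trend and robust eBayes, and voom on recovered counts. Leaving out FFC 3 with Chow 3, and centring with each library left out, were added after seeing the data.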

Additional observations from a re-analysis of the deposited data

How the results depend on the processing

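The 137 calls over all tested genes and the 0 among the 26 cell death genes were kept within 1.5 times by both pseudocounts, both filters and trend with robust eBayes. Over all genes there were 53 calls after quantile normalization (30 higher in FFC and 23 lower), 62 after cyclic loess (35 and 27), 216 with voom, 475 with FFC 3 and Chow 3 both left out, and 1 to 290 with 1 library left out (1 without FFC 1 or FFC 2, 234 without FFC 3, 7 without Chow 1, 2 without Chow 2 and 290 without Chow 3). Among the 26 genes there was 1 call after centring, 2 after cyclic loess, 1 with voom and 13 with FFC 3 and Chow 3 both left out. With 1 library left out there were 0 to 4, and 0 to 7 when the libraries were also centred. The causes were not tested.

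The median difference of the death-promoting genes was -0.198 after centring, -0.275 after quantile normalization and -0.238 after cyclic loess, and 0.109 to 0.306 with 1 library left out. That of the death-restraining genes was -0.0644 after centring and 0.0132 after quantile normalization, and 0.212 to 0.489 with 1 library left out.

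The following single genes changed sign, with no adjusted p under 0.05 on either side. After centring Bcl2 was at -0.0785, Bcl2l1 at -0.273, Birc3 at -0.309, Casp8 at -0.139, Cdkn1a at -0.364, Diablo at -0.29, Trp53 at -0.258, Xiap at -0.0503 and Fas at -0.316. After quantile normalization Bcl2 was at -0.042, Bcl2l1 at -0.141, Birc3 at -0.144, Cdkn1a at -0.23, Diablo at -0.274, Fadd at -0.276, Gsdmd at -0.275, Ripk2 at -0.00771, Tradd at -0.164, Trp53 at -0.184, Trp53inp2 at -0.218 and Fas at -0.375. After cyclic loess Bcl2l1 was at -0.0628, Birc3 at -0.0919, Cdkn1a at -0.164, Diablo at -0.233, Fadd at -0.282, Gsdmd at -0.243, Tradd at -0.123, Trp53 at -0.109, Trp53inp2 at -0.182 and Fas at -0.317. With voom Bcl2l1 was at -0.0785, Birc3 at -0.128, Cdkn1a at -0.176, Diablo at -0.107, Trp53 at -0.0736 and Fas at -0.134. With FFC 3 and Chow 3 both left out Bcl2l1 was at -0.121, Cdkn1a at -0.0354, Mcl1 at 0.0177, Parp1 at 0.0392 and Ripk1 at 0.164. With 1 library left out the ranges crossed 0 for Cdkn1a (-0.0914 to 0.167), Bcl2l1 (-0.0645 to 0.205), Parp1 (-0.161 to 0.0532), Birc3 (-0.0335 to 0.28), Ripk1 (-0.17 to 0.142) and Fas (-0.0756 to 0.304).

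With the replicate number as a block, 1 gene of all and 0 of the 26 passed, and Fasl, Nlrp3, Mefv, Il7, Gzma, Prf1, Gzmm and C1qa did not (adjusted p from 0.135 to 0.171). Deviations of libraries that share a number correlated at 0.0193, -0.223 and -0.0425, and those of the other pairs of libraries at -0.288 to 0.326. With 3 libraries a group these values cannot show whether the numbers stand for a pairing. With 3 libraries a group, the p-values rest on the spread between these libraries, which limma moderates over all tested genes. Counts of about 100, as for Trp53inp2, carry the most counting error of the 26 genes.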
